A study of Drosophila melanogaster with 3 samples.

Results

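The ecdysone receptor gene EcR, its partner gene usp and the cofactor genes tai, rig, Smr, trr and Utx were followed on arrays of midgut RNA from EcR mutant Drosophila melanogaster larvae. The members were the probes to which the platform annotation gave 1 of these 7 symbols and no other. There were 9 such probes among the 20000 of the array, and they covered 6 of the 7 genes, out of 9905 genes named on it. EcR, usp, Smr and trr had 1 probe each, Utx had 2 and tai had 3, and rig is not analysed here. All 9 probes had a value on every array.

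Ecdysone is the steroid hormone that times molting and metamorphosis in insects. It binds EcR, a nuclear receptor that works as a dimer with Ultraspiracle, the product of usp and the fly relative of the vertebrate RXR receptors. Without hormone the dimer can hold corepressors such as Smr on its target genes, and with hormone it recruits coactivators such as tai and the chromatin enzymes trr and Utx. In the midgut of late larvae this switch precedes the death of the larval epithelium and its replacement by the adult gut.

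The mutant group consisted of midguts from animals that had the allele pair EcRM554fs/EcRV559fs, by which the function of every EcR isoform is lost, and that carried the transgene hs-EcR-B230.1, induced by heat shock to bring the animals through earlier development. They were collected at stage 2a, late in the third larval stage, where they arrest, and the 3 samples (replicates 3, 4 and 6, after their titles) were independent per the labels. The reference was 1 mixture of midgut RNA from wild-type Canton S animals of several stages, used on every array. The mutant RNA was read at 635 nm and the reference at 532 nm, with no array in the opposite orientation. A ratio therefore holds genotype, stage, strain background, heat shock history and dye together, and these cannot be told apart here. The labels used here give no ages, sexes or numbers of animals per sample.

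A positive log2 ratio stands for more RNA in the mutant than in the reference. That direction is likely and not stated, since it rests on the channel order in the labels, and with the opposite direction every sign below would turn. The values of an array were centred on their median, the probes of a gene were averaged, and the mean ratio was tested against 0 with limma, two-sided, with Benjamini-Hochberg adjustment over 13027 features (9757 of them named genes) and a threshold of 0.05. Values were present for 18991 probes on replicate 3, 14097 on replicate 4 and 14069 on replicate 6. Precision is limited by the number of arrays, 3, and over all features the median SD between them was 0.104. An exact sign-flip test of 1 gene over 3 arrays cannot give a p below 0.25, so every test here borrows its spread from the other features. The values used here are ratios alone, so neither the tissue label nor any absolute level could be checked against marker genes.

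Of the 6 member genes, EcR was higher in the mutant, Utx was lower, and usp, tai, Smr and trr did not pass. One member of 6 in each direction stood against 13.4% of all features called higher and 23.6% called lower (37.0% in all), so the count sets the members near the background. The median ratio was -0.03 over the members, which turned to 0.03 on the values as deposited, and 0.008 over all features, and the median absolute ratio was 0.2 over the members and 0.15 over all features. The sign was the same on all arrays for EcR, Smr and Utx, which is 3 of 6, beside 67.2% of all features.

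EcR, the hormone receptor itself and the mutated gene, had log2 ratios of 1.72, 0.57 and 2.19 on replicates 3, 4 and 6. All of them were positive, and replicate 4 lay far below the other arrays. The mean was 1.49 ± 0.83 (SD, n = 3), a 2.81-fold higher level in the mutant with a 95% interval of 1.82 to 4.35 (limma adjusted p = 0.00443). In the order of all 13027 features EcR stood at place 157 from the highest. On the single arrays it stood at places 121, 487 and 76 for replicates 3, 4 and 6. Its spread between arrays was larger than that of nearly all features, at percentile 99.8. With the robust eBayes of limma, EcR passed only narrowly (adjusted p = 0.048). Without replicate 3 the mean was 1.38 and did not pass (adjusted p = 0.0576), and without replicate 4 it was 1.95 (adjusted p = 0.000126). Without replicate 6 the mean was 1.14 with an SD of 0.809, yet the adjusted p was smaller, at 4.13e-05. The p and the interval rest on a spread drawn towards that of other features and do not measure the spread of EcR itself.

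Whether the EcR probe detects transcripts of the mutant alleles, of the transgene or of both is not recorded in the labels or the files. The RefSeq gene table lists 6 EcR transcripts, and the files do not tell them apart. The alleles are named as frameshifts at M554 and V559, which change the protein, so a transcript level is no check on the loss of its function.

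**Figure D1:**
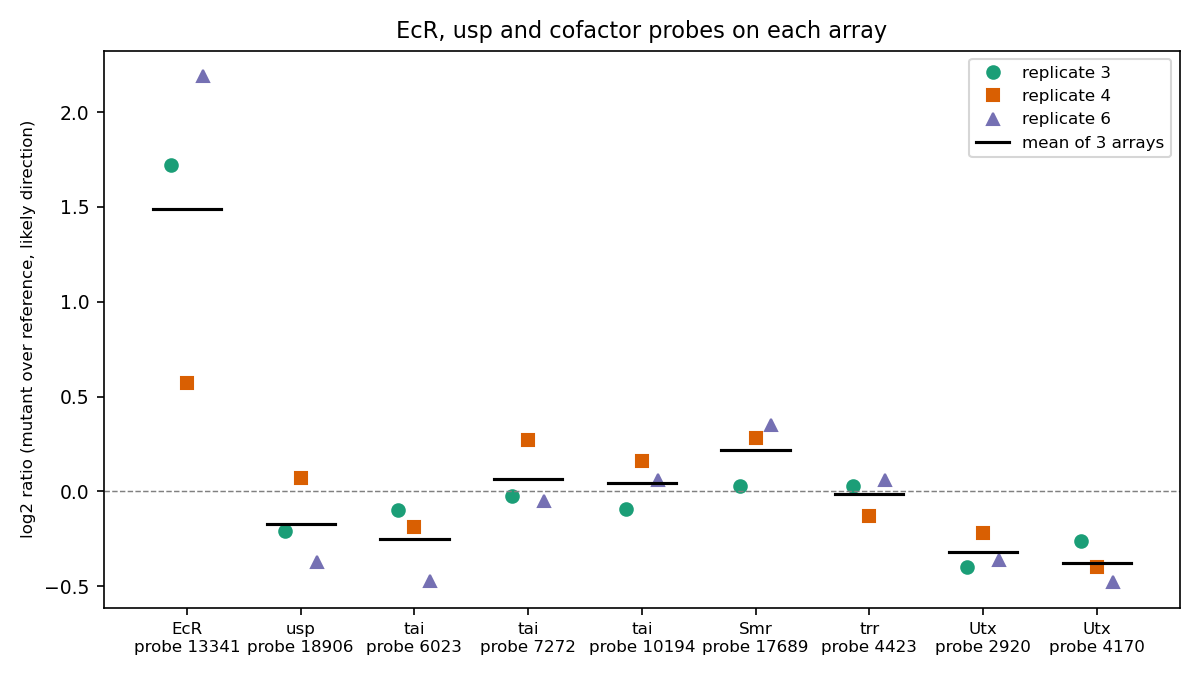
Log2 ratio of mutant over reference (vertical axis, likely direction, each array centred on its median) for each of the 9 probes (horizontal axis), with 1 point per array and a bar at the mean of 3 arrays. EcR lies above 0 on every array with replicate 4 lowest at 0.57, both Utx probes lie below 0 on every array, and the other probes lie between -0.47 and 0.35.

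The usp gene, which encodes the obligate partner of EcR, had ratios of -0.21, 0.073 and -0.37 on replicates 3, 4 and 6. The arrays did not share a sign, and replicate 4, where EcR was lowest, was the one above 0. The mean was -0.17 ± 0.23 (SD, n = 3), with a 95% interval of -0.39 to 0.045 and an adjusted p of 0.186. Without replicate 4 usp was called lower, at -0.29 (adjusted p = 0.029), and in no other alternative was it called. The receptor gene and its partner thus had unlike ratios on the same arrays. EcR exceeded usp by 1.93, 0.5 and 2.56 on replicates 3, 4 and 6, with a mean difference of 1.66 ± 1.06 (SD, n = 3) that was not tested.

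Among the coactivators, tai encodes a steroid receptor coactivator of the p160 family with a bHLH-PAS domain. Averaged over 3 probes, its ratios were -0.07 on replicate 3, 0.083 on replicate 4 and -0.15 on replicate 6, with a mean of -0.046 ± 0.12 (SD, n = 3; 95% interval -0.21 to 0.12; adjusted p = 0.625). The arrays fell on both sides of 0. The sign of the mean was not stable either, at 0.014 on the values as deposited and 0.0063 without replicate 6.

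The 3 tai probes gave different pictures. Probe 6023 was negative on every array, at -0.097, -0.19 and -0.47 on replicates 3, 4 and 6, with a mean of -0.25 ± 0.19 (SD, n = 3). Tested as a feature of its own over 13921 probes, of which 37.2% were called, it did not pass (adjusted p = 0.0554). Probe 7272 had -0.022, 0.27 and -0.052, with a mean of 0.067 ± 0.18 (adjusted p = 0.549). Probe 10194 had -0.092, 0.16 and 0.061, with a mean of 0.043 ± 0.13 (adjusted p = 0.664). Replicate 4 was the highest array for these last probes and the middle one for probe 6023. Between the lowest and the highest probe mean the range was 0.316, and among the 60 genes with 3 probes the median range was 0.255, with 60.0% of them below the range of tai. RefSeq lists 6 transcripts for tai, and neither labels nor files say which of them each probe detects.

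Smr encodes SMRTER, the corepressor that EcR binds without hormone. Its ratios were 0.03, 0.28 and 0.35 on replicates 3, 4 and 6, so the arrays shared a sign but replicate 3 was close to 0. The mean was 0.22 ± 0.17 (SD, n = 3), with a 95% interval of 0.035 to 0.4, an unadjusted p of 0.026 and an adjusted p of 0.0653, which missed the threshold. Smr was called higher on the values as deposited, at 0.28 (adjusted p = 0.0266), and with quantile normalization, at 0.22 (adjusted p = 0.0473). When 0 was set by the probes of chemosensory receptor genes, called receptor centring below, it stood at 0.12 (adjusted p = 0.281).

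The enzymes trr and Utx belong to 1 chromatin complex. trr is the trithorax-related methyltransferase that marks enhancers on histone H3 lysine 4, and Utx removes the repressive mark on lysine 27. For trr the ratios were 0.029, -0.13 and 0.061 on replicates 3, 4 and 6. They straddled 0, with a mean of -0.014 ± 0.1 (SD, n = 3), a 95% interval of -0.17 to 0.14 and an adjusted p of 0.887. As a fold the interval runs from 0.889 to 1.1 times the reference.

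Utx had ratios of -0.33, -0.31 and -0.42 on replicates 3, 4 and 6. The arrays lay close together and all below 0, with a mean of -0.35 ± 0.059 (SD, n = 3), a 95% interval of -0.5 to -0.21 and an adjusted p of 0.00373. This is a 1.28-fold lower level in the mutant. The spread between arrays was small, at percentile 21.2 of all features, whereas that of EcR was at percentile 99.8. By size the change was modest, at place 3012 of 13027 by absolute ratio.

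Each Utx probe was lower when tested on its own, where 24.0% of all probes were called lower. Probe 2920 had -0.4, -0.22 and -0.36 on replicates 3, 4 and 6 (mean -0.32 ± 0.092, SD, n = 3; adjusted p = 0.00766). Probe 4170 had -0.26, -0.4 and -0.48 on the same arrays (mean -0.38 ± 0.12; adjusted p = 0.00467). The means differed by 0.0572, and the order of the arrays differed between the probes. Utx stayed past an adjusted p of 0.05 in every refit and as each probe on its own, with values from -0.45 to -0.29 and adjusted p from 0.00127 to 0.0389. Its change is smaller than the 1.5-fold used as a stricter threshold.

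Numbers of the probes bear on how far they count as separate measurements. Of the 680 genes with 2 probes, 452 (66.5%) had probe numbers 1249 or 1250 apart, as had the Utx probes and the first 2 tai probes. Whether such pairs are the same sequence printed at separate places or separate designs is recorded neither in the labels nor in the files. Across these pairs the median difference between the probe means was 0.0868, and the first 2 tai probes differed by 0.316, more than 87.6% of them. The Utx pair differed by more than 36.7% of them.

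**Figure D2:**
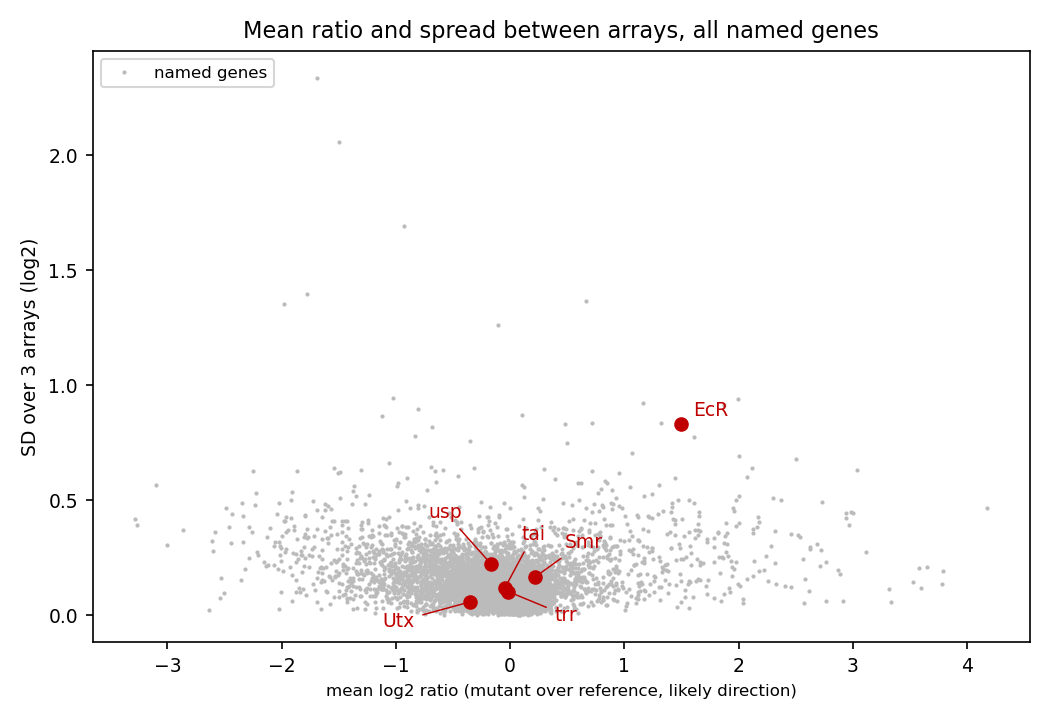
Mean log2 ratio (horizontal axis, mutant over reference, likely direction) and SD over 3 arrays (vertical axis) of every named gene tested, in grey, with the 6 members in red. EcR combines a high mean of 1.49 with an SD of 0.83, while the other members lie in the dense middle, Utx with an SD of 0.059.

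From highest to lowest, the members stood in the order EcR, Smr, trr, tai, usp, Utx. EcR lay above Smr on all arrays, by 1.69, 0.29 and 1.84 on replicates 3, 4 and 6, so that the gap was far smaller on replicate 4. Smr lay above trr by 0.0013, 0.41 and 0.29, a mean difference of 0.23 ± 0.21 (SD, n = 3). trr and tai changed places on replicate 4, and their mean difference of 0.033 ± 0.22 was smaller than its spread. tai lay above usp by 0.12 ± 0.11 and usp above Utx by 0.18 ± 0.18, so those neighbours were separated by about 1 SD of their difference. The corepressor gene Smr lay above the demethylase gene Utx by 0.36, 0.59 and 0.77, a mean of 0.57 ± 0.21. These differences between members are descriptions and were not tested.

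Between arrays, EcR followed the order replicate 6, replicate 3, replicate 4, an order held by 16.6% of all features. Of the other members only trr had it, with values close to 0. usp, tai and Utx had the opposite order, replicate 4 highest and replicate 6 lowest, an order held by 23.8% of all features. For tai and Utx it holds for the average over probes: neither Utx probe had it alone, and of the tai probes only probe 7272 did. The arrays also differed in spread, with an SD over all probes of 0.473, 0.462 and 0.579 on replicates 3, 4 and 6. The spread thus ranked the arrays as EcR did, and its part in the orders of the members and of the lists below was not tested.

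Since the rescuing transgene was heat shock inducible, the heat shock genes were set beside EcR. Of 17 written, 8 were tested. Of these 8, 6 had the order of EcR, beside 16.6% of all features, and 7 were lowest on replicate 4, beside 33.0%. Hsp68, an inducible chaperone of the Hsp70 family, had 0.99, -0.84 and 1.84 on replicates 3, 4 and 6. Hsp22, a small heat shock protein, had -0.14, -1.34 and 1.18 on the same arrays, and Hsp26, also a small heat shock protein, had 0.18, -0.8 and 0.94. The exceptions to the order were stv, a co-chaperone at 0.64, 0.14 and 0.37, and Hsf, the heat shock transcription factor, at -0.22, -0.12 and -0.17. Over the list the median was 0.017, -0.82 and 0.51 on replicates 3, 4 and 6. The pattern was also found outside this list: of 5 muscle marker genes tested, 4 had the order of EcR and 4 were lowest on replicate 4. Of 8 midgut marker genes tested, 3 had the order (Jon65Aiii, Amy-d and betaTry, all called higher) and 4 were lowest on replicate 4. In the other marker lists, 1 of 3 salivary gland, 1 of 3 Malpighian tubule, 0 of 4 fat body and 0 of 7 hemocyte genes had the order. The part of the heat shock genes in the EcR value was not tested. The heat shock list had 1 gene called higher (stv, mean 0.38, adjusted p = 0.0193) and 1 lower (CG4456, mean -0.53, adjusted p = 0.0297). Over all features 13.4% were called higher and 23.6% lower. The call of CG4456 was lost with robust eBayes and without replicate 3 or 4, and that of stv without replicate 3 and with receptor centring.

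**Figure D3:**
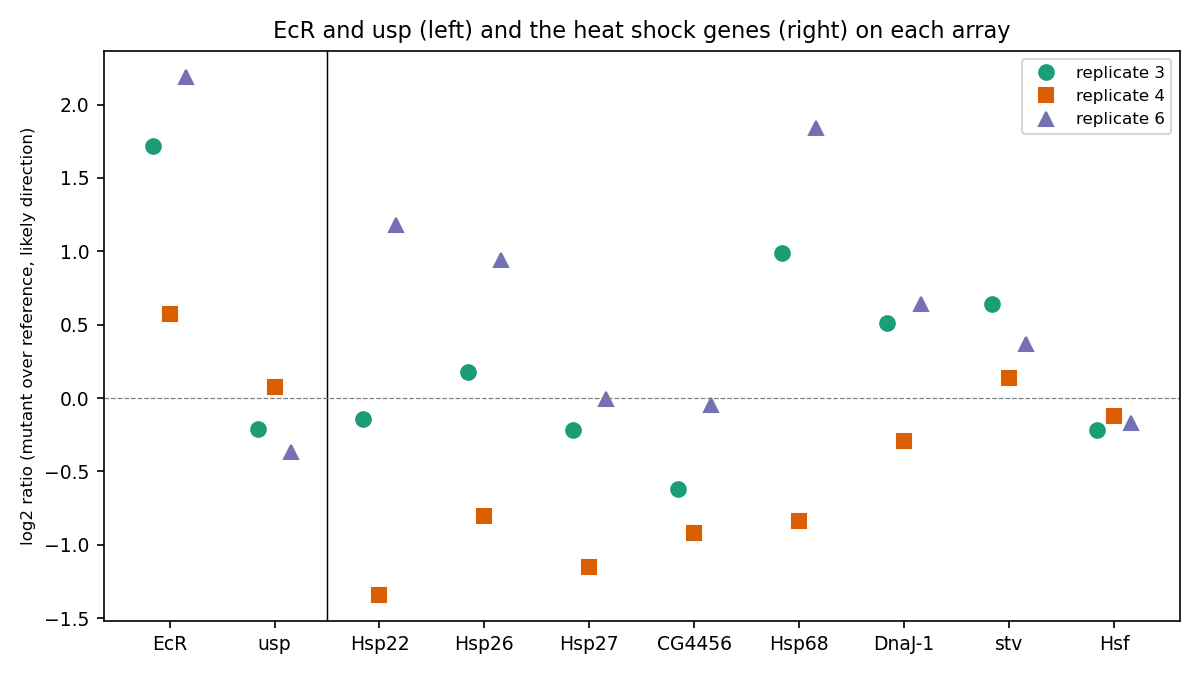
Log2 ratio of mutant over reference (vertical axis, likely direction) of EcR, usp and the 8 heat shock genes tested, with 1 point per array. Replicate 4 is the lowest array for EcR and for 7 of the 8 heat shock genes, and the highest for usp.

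The named genes whose 3 ratios lay nearest to those of EcR, by Euclidean distance over the 3 arrays, were lambdaTry, Ugt49B1 and Slc45-1. lambdaTry, a trypsin gene, had 1.84, 0.74 and 2.24 on replicates 3, 4 and 6, at a distance of 0.22. Ugt49B1, of the glucuronosyltransferase family, had 1.68, 0.77 and 1.89 at a distance of 0.363, and Slc45-1, of a sugar transporter family, had 1.57, 0.65 and 1.69 at a distance of 0.526. The likeness rests on 3 arrays that share 1 reference.

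Genes that work with the members were described in 4 lists of 37 genes, 28 of them tested. Among the 28, 2 rose and 9 fell, 17 missed the threshold, and the median was -0.085. Over all features 13.4% were called higher and 23.6% lower, the shares to set beside the counts of each of these 4 lists below. Without replicate 3 the counts were 1 higher and 4 lower, on a background of 6.03% higher and 15.2% lower.

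In the complex of trr and Utx, 7 of 8 further subunits were tested, with 1 higher, 0 lower and 6 not passing in limma, and a median of 0.023 (-0.077 with receptor centring). The subunit that was higher was ash2, a core subunit shared by the H3 lysine 4 methyltransferases, with 0.88, 0.54 and 0.74 on replicates 3, 4 and 6. All arrays lay well above 0, with a mean of 0.72 ± 0.17 (SD, n = 3; adjusted p = 0.000453). Its probes, numbered 1249 apart, gave 0.77 and 0.67. The other subunits lay between -0.088 and 0.12. Within 1 complex the demethylase gene was thus lower, a shared subunit higher, and the methyltransferase gene did not pass.

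Among the corepressor genes around Smr and the histone deacetylases, 3 of 6 were tested, with 0 higher and 2 lower and a median of -0.27. Sap30, a subunit of the Sin3 deacetylase complex, had -0.91, -0.63 and -0.74 on replicates 3, 4 and 6, a mean of -0.76 ± 0.14 (SD, n = 3; adjusted p = 0.000244). HDAC1, the deacetylase also known as Rpd3, had -0.24, -0.36 and -0.22, with a mean of -0.27 ± 0.072 (adjusted p = 0.0125). HDAC1 did not pass without replicate 3 (-0.29, adjusted p = 0.0769). Both differed in sign from Smr, whose own ratio did not pass.

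Of 15 other coregulators reported with EcR or its partner, 12 were tested, with a median of -0.17. Of these, 0 were higher and 5 lower, beside 13.4% and 23.6% of all features. The largest was TP53INP, long known as DOR and reported in Drosophila as a coactivator of EcR. It had -1.22, -1.03 and -1.4 on replicates 3, 4 and 6, a mean of -1.22 ± 0.18 (SD, n = 3; adjusted p = 4.67e-05), and both of its probes had a mean of -1.22. The others were smaller. brm, the ATPase of the SWI/SNF remodelers, was at -0.3 ± 0.14 (adjusted p = 0.0178) and Nurf-38, a subunit of the NURF remodeler, at -0.29 ± 0.14 (adjusted p = 0.0182). Also lower, and singled out once their values were known, were alien, a corepressor, at -0.28 and Caf1-55, a histone chaperone, at -0.27. Without replicate 3 none of these smaller calls was kept, with adjusted p between 0.0623 and 0.0874. brm and Caf1-55 also did not pass without replicate 6, nor Nurf-38 without replicate 4.

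The chaperones that prepare steroid receptors to bind hormone gave 1 higher and 2 lower among 6 tested of 8, with a median of -0.11. The Hsp90 co-chaperone gene p23 had -0.43, -0.69 and -0.33 on replicates 3, 4 and 6, a mean of -0.48 ± 0.19 (SD, n = 3; adjusted p = 0.00346). STUB1, a ubiquitin ligase that acts with chaperones, was at -0.4 ± 0.04 (adjusted p = 0.00173). Hsc70-4, a constitutive member of the Hsp70 family, was at 0.23 ± 0.036 (adjusted p = 0.0192), and it did not pass without any 1 of the replicates or with receptor centring (0.13, adjusted p = 0.119).

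**Figure D4:**
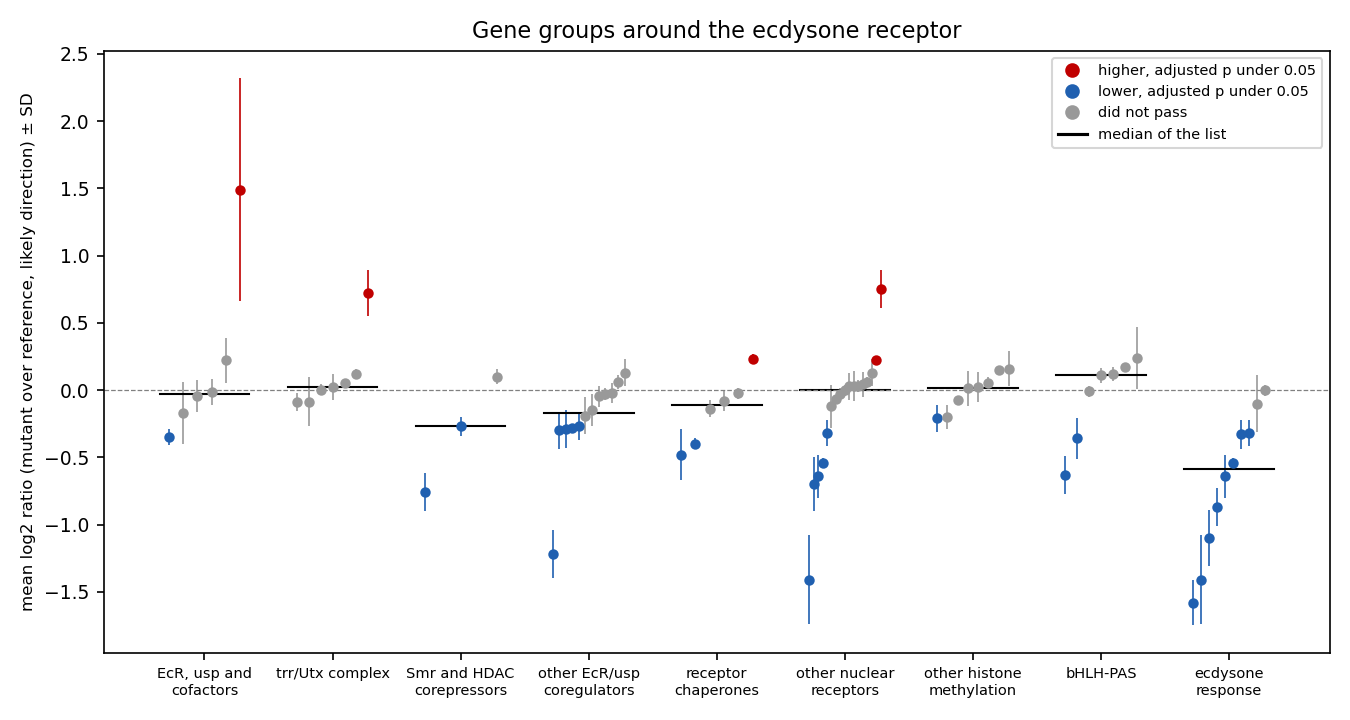
Mean log2 ratio with SD over 3 arrays (vertical axis, mutant over reference, likely direction) of the members and of each gene tested in 8 related lists (horizontal axis), with red for higher and blue for lower at an adjusted p under 0.05, grey for genes that did not pass and a bar at each median. The ecdysone response list has 8 of its 10 genes in blue, and EcR, at 1.49, is the highest gene plotted.

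Within the nuclear receptor family, of which EcR and usp are members, 17 of 19 further genes were tested, with 2 higher and 5 lower and a median of -0.00065 (0.06 as deposited), counts near the 13.4% higher and 23.6% lower of all features. Hr3, a receptor induced by ecdysone, had the largest change at -1.41 ± 0.33 (SD, n = 3; adjusted p = 0.000129), followed by Hr96, a receptor of lipid and xenobiotic metabolism, at 0.75 ± 0.14 (adjusted p = 0.000245). ERR, the estrogen-related receptor of carbohydrate metabolism, was at -0.7 ± 0.2 (adjusted p = 0.000706). The further calls, singled out once their values were known, were Hr78 at -0.64, ftz-f1 at -0.54, Hr39 at -0.32 and eg at 0.22. Hr39 and eg did not pass without replicate 3, and eg did not pass without replicate 4 or 6 or with receptor centring either. One of the 3 ftz-f1 probes, at -0.11, did not pass on its own (adjusted p = 0.269). The mean of EcR lay above that of every one of these receptors, the highest being 0.75.

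For the next 2 lists, the shares over all features were again 13.4% higher and 23.6% lower. Other enzymes of histone methylation, set beside trr and Utx, had 0 higher and 1 lower among 8 tested of 16, with a median of 0.019 (-0.081 with receptor centring). The lower one was Kdm3, a demethylase of histone H3 lysine 9, at -0.21 ± 0.1 (SD, n = 3; adjusted p = 0.046). It did not pass as deposited or without replicate 3 or 6. The bHLH-PAS family, to which tai belongs, had 0 higher and 2 lower among 7 tested of 11, with a median of 0.11. These were cyc, a partner of the clock protein Clk, at -0.63 ± 0.14 (adjusted p = 0.000569), and tgo, the general partner of this family, at -0.36 ± 0.15 (adjusted p = 0.00806), which did not pass without replicate 3 (-0.31, adjusted p = 0.0859).

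For the genes that the receptor controls, 10 of 16 were tested, with 0 higher and 8 lower and a median of -0.59, beside 23.6% of all features called lower. Cyp18a1, which inactivates ecdysteroids, was at -1.58 ± 0.17 (SD, n = 3; adjusted p = 1.47e-05), Hr3 at -1.41 and Eip93F, which drives steroid-induced cell death, at -1.1 ± 0.21 (adjusted p = 0.000101). These values were known when the list was written and are no independent evidence of its direction. On the same arrays EcR was at 1.49, above the reference, while the 8 called response genes lay below it. The other 2 response genes did not pass. The called genes Hr3, Hr78, ftz-f1 and Hr39 are also counted among the nuclear receptors above, so the lists are not separate observations.

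Markers of other tissues were counted beside the same background of 13.4% of all features higher and 23.6% lower. Among fat body genes 0 were higher and 3 lower of 4 tested (-1.01 to -0.076), among hemocyte genes 1 was higher and 3 lower of 7 (-1.14 to 0.23), and among muscle genes 3 were higher and 1 lower of 5 (-0.3 to 0.58). Salivary gland genes had 1 higher and 0 lower of 3 (0.14 to 0.26), and Malpighian tubule genes 1 higher and 1 lower of 3 (-0.91 to 0.64). In the midgut list 5 of 8 were higher and 0 lower (-0.15 to 2.94), with a median of 1.13. The 5 were all digestive enzyme genes, while GATAe (0.012), cad (-0.15) and nub (-0.13) did not pass. The part of tissue makeup in the members' ratios was not tested, and in these bulk samples fewer cells of a type and less RNA per cell cannot be told apart.

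**Figure D5:**
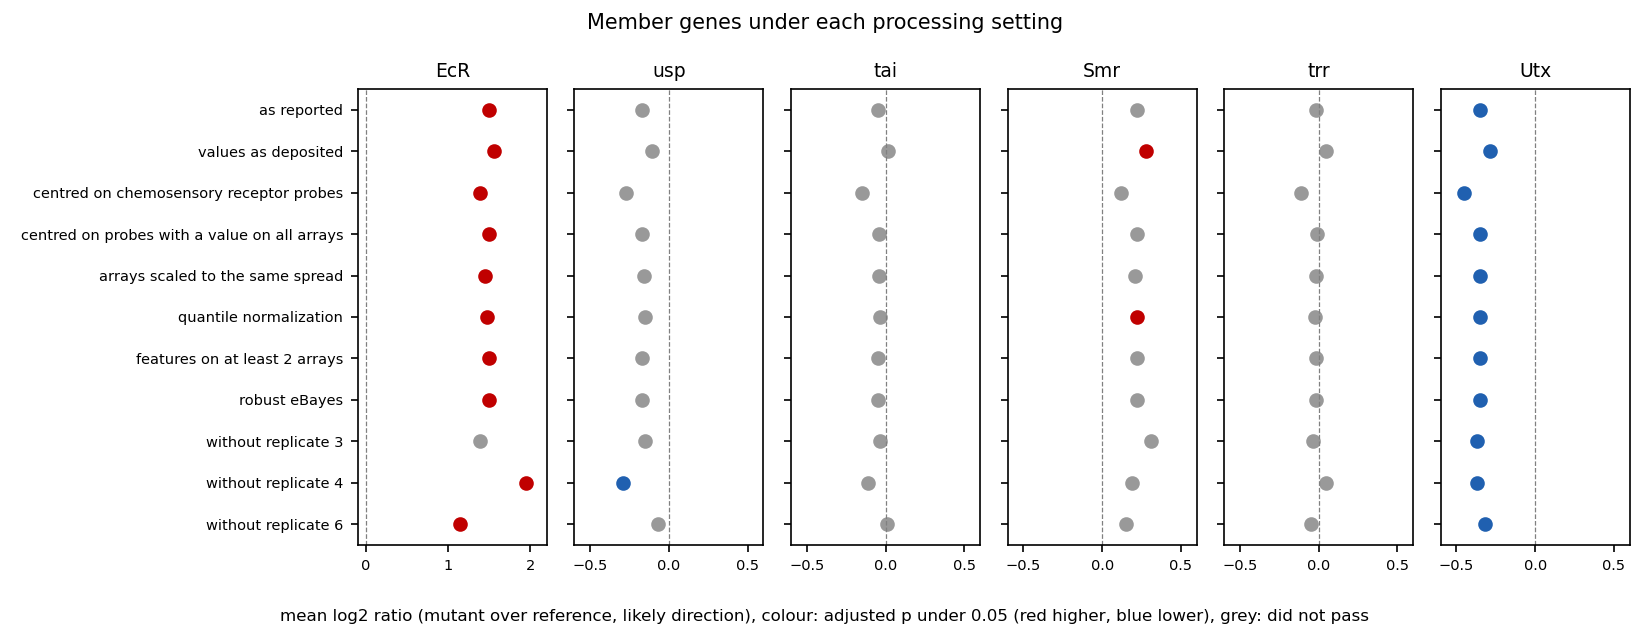
Mean log2 ratio of each member (horizontal axis of each panel, mutant over reference, likely direction) as reported and under 10 processing alternatives (rows), with red for higher and blue for lower at an adjusted p under 0.05 and grey for values that did not pass. Utx is lower in every row, EcR is grey only without replicate 3, usp is blue only without replicate 4, and Smr is red on the values as deposited and with quantile normalization.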

How the data were processed

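RNA of 3 mutant midgut samples was hybridised against 1 pooled reference on 2-colour arrays, after amplification by in vitro transcription, per the labels. The authors deposited a log2 ratio for each probe on each array. Their background correction, spot filter, software and numerator are in none of the sources used here. The log2 scale was read from the values: for 99.5% to 100% of values within 1.5 of 0, the ratio came out in whole steps of 0.001 (tolerance 0.02 of a step) once a constant was added on each array, and on other scales this held for 4.21% to 6.66%. Intensities were not used, and dim or saturated spots were not filtered.

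Of 10828 probes with 1 symbol, 10824 were matched by gene ID to the RefSeq gene table of Release 6 plus ISO1 MT, and 227 with several stayed unnamed. Arrays were centred on their medians, probes averaged per gene, and features present on all 3 arrays tested with lmFit and eBayes (limma 3.58.1, R 4.3.3; 6.88 degrees of freedom per feature). The reference counts as 1 control sample, whose own spread is left out. The p-values rest on the spread between these 3 arrays, drawn by eBayes towards that of the other features. The procedure was tested on simulated data. Python 3.11.15 with pandas 2.3.3 made the tables.

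The members, the lists and the tests were chosen with earlier results of these data known. Named genes are the members, up to 3 called genes per list with the largest absolute ratio, the 3 genes nearest to EcR and a choice of the heat shock genes with a value. Further genes are marked in the text as singled out once their values were known. The alternatives were values as deposited, centring on 105 probes of the chemosensory receptor families Or, Gr and Ir or on probes present on every array, equal spread, quantile normalization, each probe apart, features on at least 2 arrays, robust eBayes, each replicate left out in turn, and thresholds of 0.01 on the adjusted p or of 1.5-fold on the change.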

Additional observations from a re-analysis of the deposited data

How the results depend on the processing

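No paired analysis was possible because all arrays belong to 1 group. Utx kept its direction and stayed past an adjusted p of 0.05 in every refit, but its 1.28-fold change is under the 1.5-fold threshold. EcR kept its direction throughout, with means of 1.14 to 1.95 when 1 replicate was left out, and lost its call without replicate 3 (1.38). With robust eBayes the adjusted p of EcR was 0.048. usp ranged from -0.29 to -0.069 on leaving out 1 replicate and passed without replicate 4 (-0.29). Smr passed on the values as deposited (0.28) and with quantile normalization (0.22). The sign turned for tai on the values as deposited (0.014), for its probes 7272 (0.067) and 10194 (0.043) on their own and without replicate 6 (range on leaving out 1 replicate, -0.11 to 0.0063), and for trr on the values as deposited (0.047) and without replicate 4 (range -0.051 to 0.045). Of all features, 1744 were higher and 3080 lower. The number higher was 3040 as deposited, 959 with receptor centring, 901 at an adjusted p under 0.01, 535 at 1.5-fold and 792 to 1540 on leaving out 1 replicate, and the number lower was 1237 at 1.5-fold and 1995 to 3074 on leaving out 1 replicate. Receptor centring set 0 higher by 0.104, 0.088 and 0.107 on replicates 3, 4 and 6. Of the coregulator and chaperone genes, the number higher was 2 and became 1 with receptor centring, at an adjusted p under 0.01, at 1.5-fold and without any 1 replicate. The number lower was 9 and became 5 at an adjusted p under 0.01, 2 at 1.5-fold and 4 to 9 on leaving out 1 replicate. Stricter thresholds cannot raise these counts, by construction. Leaving out a replicate lowers precision but does not fix the direction in which a count moves, and the causes were not tested. Signal over background is unknown.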
